A study of Homo sapiens with 24 samples.

Results

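Feedback output of the ERK pathway was followed in A375 cells, a human melanoma line in wide use that carries an activating BRAF mutation. The set held 10 genes: the phosphatases DUSP4, DUSP5 and DUSP6, the pathway inhibitors SPRY2, SPRY4, SPRED1 and SPRED2, the transcription factors ETV4 and ETV5, and PHLDA1. Members were found by gene name, 10 of 28008 genes in the table of batch 1 and 10 of 60221 in that of batch 2. All 10 passed the filter on low counts in both batches, among 14310 and 18763 genes tested.

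RNA was measured after transfection of the long noncoding RNA SLNCR (gene symbol LINC00673), and the design asks which genes its triplex-forming regions regulate. Batch 1 compared SLNCR lacking region 1 (ΔTFR1), SLNCR lacking region 2 (ΔTFR2), full-length SLNCR (FL) and empty vector, and batch 2 compared SLNCR lacking region 4 (ΔTFR4), SLNCR lacking region 5 (ΔTFR5), FL and empty vector, with 3 biological replicates in each of the 8 groups. Every group, empty vector included, received a pcDNA3.1 plasmid with a CAG promoter by Lipofectamine and grew for 48 h in 2 µg/mL puromycin. A375 also makes SLNCR of its own, and only this 1 line was used.

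In melanoma cells with mutant BRAF the kinases MEK and ERK signal without a growth factor, and ERK induces genes whose products restrain it. DUSP6 removes phosphate from ERK in the cytoplasm, and DUSP4 and DUSP5 do so in the nucleus. Sprouty and SPRED proteins act upstream, where SPRED1 and SPRED2 bring neurofibromin to RAS. ETV4 and ETV5 are ETS transcription factors of the PEA3 family, whose transcripts follow ERK activity, and PHLDA1 encodes a pleckstrin homology-like domain protein that is also induced by ERK. Bulk RNA cannot tell fewer cells with a transcript apart from less of it per cell.

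Libraries held 8627449 to 10789211 counts in batch 1 and 24810090 to 33063293 in batch 2. Levels are counts scaled to TMM library size (CPM), and fold changes are log2 values ± standard error (SE). An edgeR adjusted p is that of its quasi-likelihood test, and a gene is called where it is under 0.05. LINC00673, the row that names SLNCR in batch 1, lay at 198 ± 7.13 CPM in ΔTFR1, 195 ± 10.1 in ΔTFR2, 208 ± 38.8 in FL and 20.1 ± 1.04 with empty vector (SD, n = 3). The table of batch 2 was read at the row LINC00511, a gene whose GENCODE model spans the LINC00673 locus, so the count also takes in its other transcripts, and in neither batch can plasmid RNA be told apart from the cell's own. That row lay at 515, 498 and 444 CPM in the ΔTFR4 libraries, 321, 376 and 192 in ΔTFR5, 728, 658 and 334 in FL, and 30.1, 29.1 and 27.9 with empty vector. The labels call the cells epithelial. Of the epithelial markers KRT18 reached 228 to 523 CPM in batch 2, while EPCAM stayed at or under 0.740 CPM, and of the melanocyte markers MITF lay at 55.8 to 198 CPM and TYR at or under 0.0795. Both FL libraries 1 and 3 of batch 2 stand apart. FL replicate 3 had the lowest LINC00511 level of its group. FL replicate 1 showed a rank correlation of -0.541 between gene GC content and expression relative to the other libraries of the batch, against -0.131 to 0.282 in the other 11. It also held the highest MITF level, at 198 CPM, and 2.79 CPM of the leukocyte marker PTPRC. The 4 lymphoid and myeloid markers summed to 0.0738 to 3.66 CPM over the FL libraries of batch 2 and to at most 0.239 in its other groups, and their part in the results was not tested. The 3 FL libraries of batch 1 had correlations of -0.604 to -0.372, against 0.0308 to 0.524 in the other 9 libraries.

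RefSeq promoter windows (GRCh38.p14), 300 bases long and mostly upstream of the gene start, were found for 6 of the 10 members: DUSP6, SPRY2, SPRY4, SPRED1, SPRED2 and PHLDA1. They are shown because RNA triplexes form over unbroken runs of purines on one DNA strand and pyrimidines on the other, and capitals mark the longest such run. SPRY2, SPRY4 and PHLDA1 are members whose RNA passed the test in batch 2, and DUSP6 and SPRED2 are members with long runs whose RNA did not. The windows lie at chr13:80341077-80341376 (SPRY2), chr5:142324198-142324497 (SPRY4), chr12:76031727-76032026 (PHLDA1), chr12:89352452-89352751 (DUSP6) and chr2:65432550-65432849 (SPRED2), all on the minus strand.
SPRY2: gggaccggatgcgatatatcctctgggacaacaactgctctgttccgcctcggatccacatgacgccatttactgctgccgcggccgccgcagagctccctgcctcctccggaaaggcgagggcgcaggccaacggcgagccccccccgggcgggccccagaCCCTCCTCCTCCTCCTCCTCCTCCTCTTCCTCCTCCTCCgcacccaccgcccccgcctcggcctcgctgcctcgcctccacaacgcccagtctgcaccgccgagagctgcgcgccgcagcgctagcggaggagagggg
SPRY4: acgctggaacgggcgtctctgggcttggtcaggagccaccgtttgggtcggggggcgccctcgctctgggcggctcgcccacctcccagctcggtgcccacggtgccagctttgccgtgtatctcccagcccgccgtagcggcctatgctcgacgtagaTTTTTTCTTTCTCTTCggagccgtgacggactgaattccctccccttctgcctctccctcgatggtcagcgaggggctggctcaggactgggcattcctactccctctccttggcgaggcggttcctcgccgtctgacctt
PHLDA1: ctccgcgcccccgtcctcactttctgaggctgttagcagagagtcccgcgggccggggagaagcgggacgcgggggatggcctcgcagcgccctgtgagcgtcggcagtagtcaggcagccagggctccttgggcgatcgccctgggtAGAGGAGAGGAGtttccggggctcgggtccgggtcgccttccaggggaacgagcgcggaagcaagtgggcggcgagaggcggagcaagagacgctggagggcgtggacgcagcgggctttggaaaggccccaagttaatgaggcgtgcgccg
DUSP6: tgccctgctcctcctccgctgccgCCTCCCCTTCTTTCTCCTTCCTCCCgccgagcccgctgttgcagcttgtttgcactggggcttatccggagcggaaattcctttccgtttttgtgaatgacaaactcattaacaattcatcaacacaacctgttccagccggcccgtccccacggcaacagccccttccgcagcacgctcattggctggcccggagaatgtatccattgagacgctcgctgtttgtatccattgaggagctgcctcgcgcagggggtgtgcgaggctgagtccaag
SPRED2: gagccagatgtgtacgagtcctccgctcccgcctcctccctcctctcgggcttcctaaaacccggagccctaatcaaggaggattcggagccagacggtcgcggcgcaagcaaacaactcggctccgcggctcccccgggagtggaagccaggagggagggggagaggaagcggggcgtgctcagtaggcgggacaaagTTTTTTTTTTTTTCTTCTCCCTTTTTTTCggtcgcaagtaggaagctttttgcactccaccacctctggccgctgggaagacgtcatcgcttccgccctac
The SPRY2 run spans 39 pyrimidines, and 0.382% of 35116 promoters of the same length held a run at least as long. The run spans 29 bases in SPRED2 (1.24% of promoters), 25 in DUSP6 (2.29%) and 16 in SPRY4 (15.4%). PHLDA1 has a run of 12 purines, a length reached by 44.9% of promoters. A long run stood both before a member that was called in batch 2 (SPRY2) and before members that were not (SPRED2, DUSP6). SPRED1, whose window is not printed and whose RNA did not pass the test in batch 2 either, had the shortest run, 10 pyrimidines. Whether run length goes with the calls was not tested. None of the 6 windows holds, on either strand, the ETS letters GGAAGT, the AP-1 letters TGANTCA or the CRE letters TGACGTCA, which occur in 22.8%, 7.71% and 1.85% of all promoters. With no match there is no overlap between motifs.

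In batch 2, 4 of the 10 feedback genes were called higher in ΔTFR4 than with empty vector and none lower: PHLDA1, DUSP5, SPRY4 and SPRY2, by 1.61 to 2.28 fold. Of all genes tested, 23.9% were called in that comparison, 12.5% as higher. In ΔTFR5 only PHLDA1 was called, as higher, where 10.2% of all genes were called and 5.48% as higher. In FL only DUSP5 was called, as higher, where 1.16% of all genes were called and 1.03% as higher. At an unadjusted edgeR p under 0.05 were 4 of the 10 members in ΔTFR4, 2 in ΔTFR5 and 7 in FL. Of the 18763 genes, 6934, 4950 and 4933 were. In this main edgeR fit of all 12 libraries, DUSP6, ETV5, SPRED1, SPRED2, DUSP4 and ETV4 were called in none of these 3 comparisons. With the 2 compared groups only, DUSP4 and ETV4 were called lower and SPRED1 higher in ΔTFR4, among 51.9% of all genes. The 3 comparisons share the empty vector libraries. The members' median log2 fold change was 0.20 in ΔTFR4, 0.14 in ΔTFR5 and 0.42 in FL, against 0.02 over all tested genes in each.

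**Figure D1:**
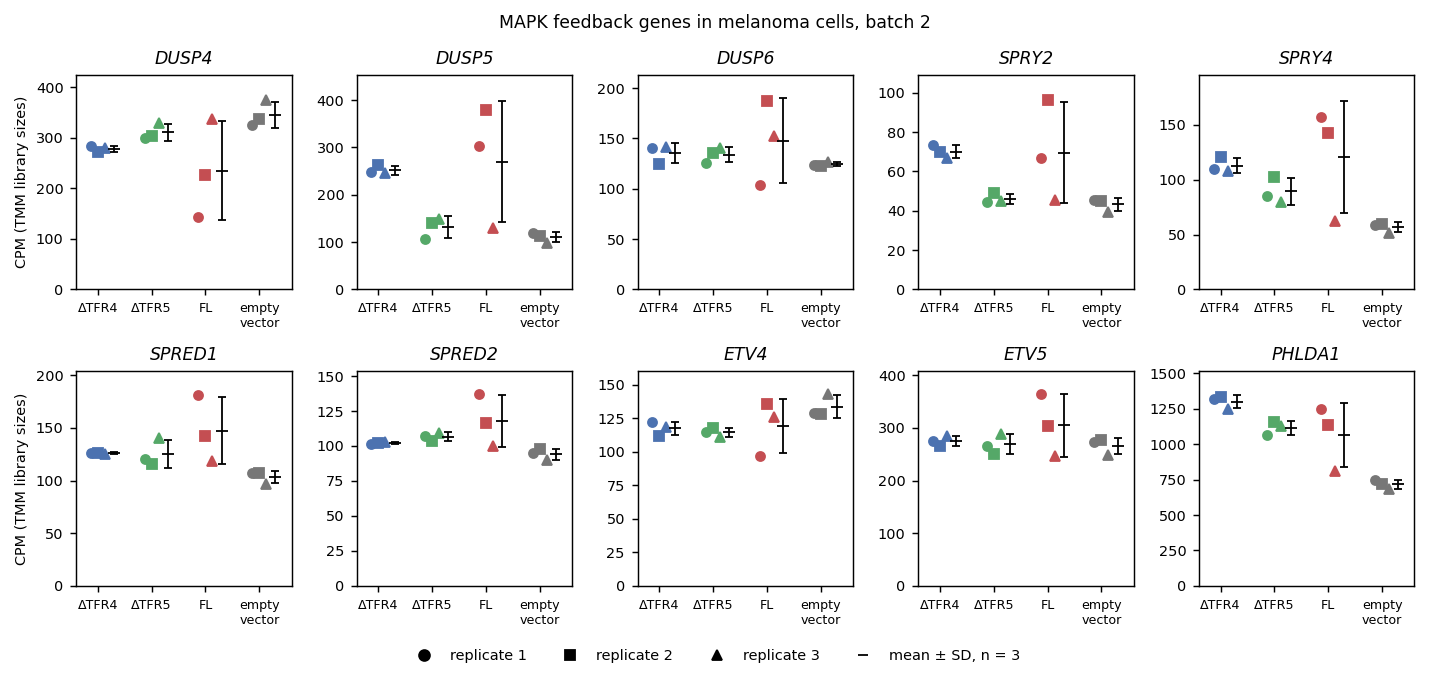
Level (CPM, vertical axes from 0) of each feedback gene in the 12 libraries of batch 2, by group, with symbols for replicates and bars for mean ± SD (n = 3). DUSP5 and SPRY2 are high in all ΔTFR4 libraries and in FL replicates 1 and 2, and FL replicate 3 lies near empty vector.

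Among the phosphatases, DUSP5 lay at 248, 262 and 245 CPM in the ΔTFR4 libraries and 107, 141 and 149 in ΔTFR5. FL libraries held 302, 379 and 129.9 CPM, and empty vector 119.7, 113 and 98.9. ΔTFR4 and FL each lie above every empty vector library, ΔTFR5 overlaps with it, and the third FL library is within the ΔTFR5 range. DUSP5 rose by 1.19 ± 0.28 in ΔTFR4 (edgeR adjusted p = 0.00959) and by 1.29 ± 0.28 in FL (edgeR adjusted p = 0.0496). In ΔTFR5 its difference from empty vector was 0.26 ± 0.28 (edgeR adjusted p = 0.592), with a 95% interval of -0.38 to 0.90. The ΔTFR4 call held without any 1 library and was lost with no filter on low counts (edgeR adjusted p = 0.0553). The FL call was lost when any 1 library of the batch other than FL replicate 3 was left out, at adjusted p = 0.0775 to 0.217.

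DUSP4 ran the other way in the FL group. Its level was 283, 271 and 279 CPM in ΔTFR4, 299.9, 303 and 329 in ΔTFR5, 142, 225 and 337 in FL, and 325, 337 and 375 with empty vector. FL replicates 1 and 2 were the lowest of the 12 libraries and FL replicate 3 was within the empty vector range, and the ΔTFR4 libraries were all below empty vector. No DUSP4 difference was called in the main fit, at -0.31 ± 0.22 in ΔTFR4 (edgeR adjusted p = 0.32) and -0.56 ± 0.22 in FL (edgeR adjusted p = 0.139). With only ΔTFR4 and empty vector in the model DUSP4 passed as lower, at -0.32 (edgeR adjusted p = 0.000733). DUSP6 was called in no comparison, at 136 ± 9.51 CPM in ΔTFR4, 134 ± 7.55 in ΔTFR5, 148 ± 41.9 in FL and 125 ± 2.05 with empty vector (SD, n = 3). Its largest difference from empty vector was 0.25 ± 0.17 in FL (edgeR adjusted p = 0.354).

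In ΔTFR4 and FL of batch 2 the Sprouty genes, like DUSP5, lay above every empty vector library. SPRY4 measured 110.0, 120.3 and 108 CPM in ΔTFR4, 85.3, 103 and 79.9 in ΔTFR5, 158, 143 and 62.4 in FL, and 59.2, 59.5 and 51.3 with empty vector. All 9 libraries with SLNCR lie above all 3 with empty vector, and the third FL library lies just above. SPRY4 rose by 0.99 ± 0.25 in ΔTFR4 (edgeR adjusted p = 0.0136), and its differences of 0.66 ± 0.25 in ΔTFR5 (edgeR adjusted p = 0.114) and 1.09 ± 0.25 in FL (edgeR adjusted p = 0.0564) did not pass. SPRY2 measured 73.3, 70.0 and 66.8 CPM in ΔTFR4, 44.5, 49.1 and 44.8 in ΔTFR5, 66.7, 96.5 and 45.4 in FL, and 45.3, 45.2 and 39.6 with empty vector. ΔTFR4 stands clear of empty vector, while ΔTFR5 overlaps with it and FL replicate 3 barely exceeds the highest empty vector library. SPRY2 rose by 0.69 ± 0.20 in ΔTFR4 (edgeR adjusted p = 0.0254), and differed by 0.68 ± 0.20 in FL (edgeR adjusted p = 0.08) and 0.09 ± 0.20 in ΔTFR5 (edgeR adjusted p = 0.821). Leaving out any 1 ΔTFR4 or empty vector library took the SPRY2 call in ΔTFR4 away, at adjusted p = 0.0575 to 0.0962. Leaving out empty vector replicate 3 or ΔTFR4 replicate 2 took the SPRY4 call away, at 0.0604 and 0.0519.

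PHLDA1 was the member with the lowest adjusted p. It measured 1321, 1332 and 1249 CPM in ΔTFR4, 1062, 1153 and 1131 in ΔTFR5, 1248, 1137 and 814 in FL, and 746, 722 and 682 with empty vector. Each library transfected with SLNCR lies above each empty vector library, and FL replicate 3 is the lowest of the 9. PHLDA1 rose by 0.86 ± 0.14 in ΔTFR4 (edgeR adjusted p = 0.00179) and by 0.64 ± 0.14 in ΔTFR5 (edgeR adjusted p = 0.0152), and differed by 0.57 ± 0.14 in FL (edgeR adjusted p = 0.0608). The ΔTFR5 call was lost without any 1 empty vector library or without ΔTFR5 replicate 2, at adjusted p = 0.0521 to 0.0760.

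SPRED1, SPRED2, ETV4 and ETV5 were not called in the main edgeR fit of batch 2. SPRED1 measured 127, 126 and 125 CPM in ΔTFR4, 120.4, 115 and 140.4 in ΔTFR5, 181, 142 and 119 in FL, and 107, 107 and 96.7 with empty vector. It lay above empty vector in all 9 libraries with SLNCR, yet its differences of 0.28 ± 0.14 in ΔTFR4, 0.28 ± 0.14 in ΔTFR5 and 0.51 ± 0.14 in FL did not pass (edgeR adjusted p = 0.166, 0.237 and 0.074). SPRED2 averaged 102 ± 0.634 CPM in ΔTFR4, 107 ± 3.02 in ΔTFR5, 118 ± 18.7 in FL and 94.2 ± 3.93 with empty vector (SD, n = 3). It too lay above empty vector in all 9 libraries, with differences of 0.12 to 0.32. ETV5 averaged 274 ± 9.43, 268 ± 19.0 and 305 ± 59.6 CPM in ΔTFR4, ΔTFR5 and FL, against 266 ± 15.1 with empty vector. ETV4 averaged 117 ± 5.04, 114 ± 3.11 and 119 ± 20.2 CPM in ΔTFR4, ΔTFR5 and FL, against 133 ± 8.60 with empty vector. ETV4 thus lay lower on average in each group with SLNCR, with differences of -0.22 to -0.16 that did not pass (edgeR adjusted p = 0.277 to 0.422). It passed as lower in ΔTFR4 and ΔTFR5 with the 2 compared groups only (edgeR adjusted p = 0.0272 and 0.0427). With the GC trend removed it passed in both too (edgeR adjusted p = 0.0494 and 0.0432).

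**Figure D2:**
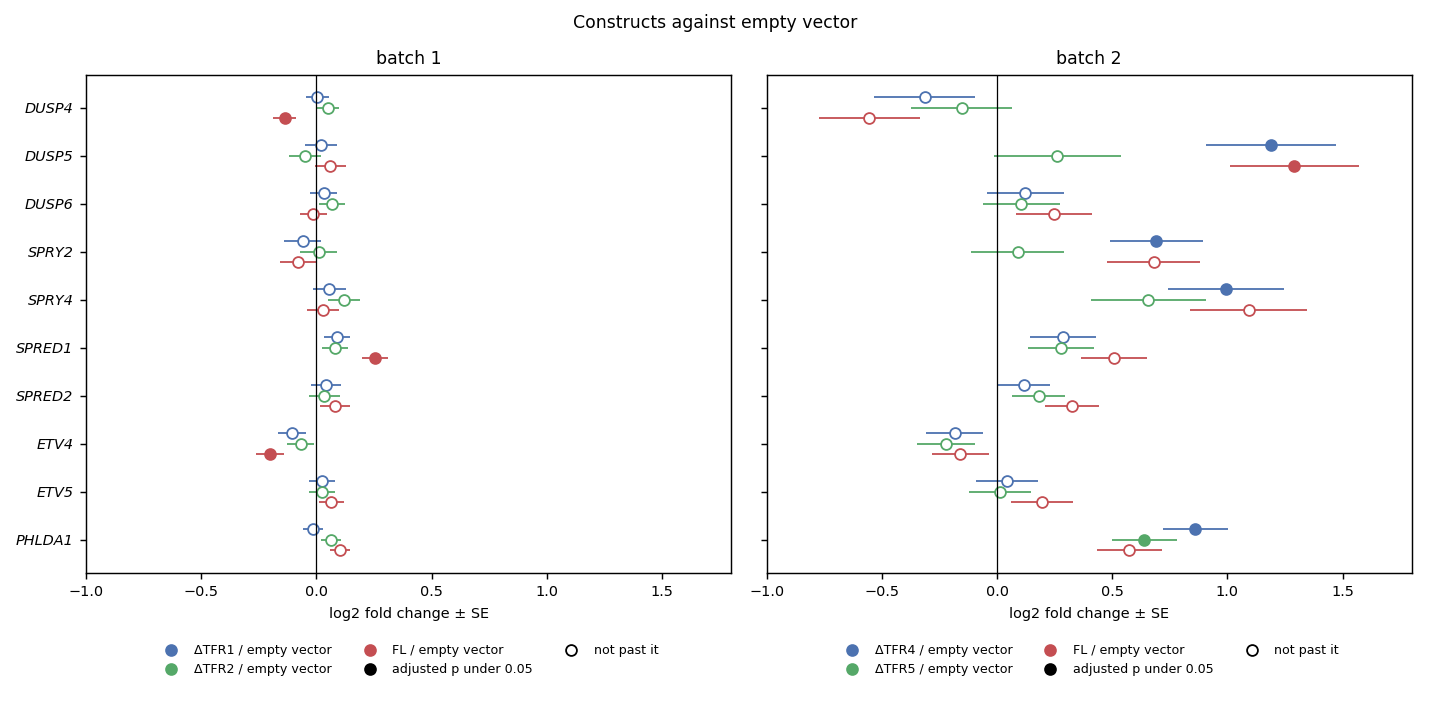
Log2 fold change ± SE against empty vector for each feedback gene, batch 1 on the left and batch 2 on the right, filled where the edgeR adjusted p is under 0.05. Batch 1 values lie between -0.20 and 0.26, and DUSP5 and SPRY4 reach 1.29 and 1.09 in FL of batch 2.

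Groups of batch 2 that did not overlap with empty vector numbered 6 higher and 2 lower members in ΔTFR4, 4 higher and 1 lower in ΔTFR5, and 6 higher and 0 lower in FL. Over all tested genes the shares higher and lower were 29.2% and 27.5% in ΔTFR4, 22.8% and 21.8% in ΔTFR5, and 11.8% and 11.2% in FL. The 6 members higher in FL were DUSP5, SPRY2, SPRY4, SPRED1, SPRED2 and PHLDA1, and in each of them FL replicate 3 was the FL library nearest to empty vector.

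**Figure D3:**
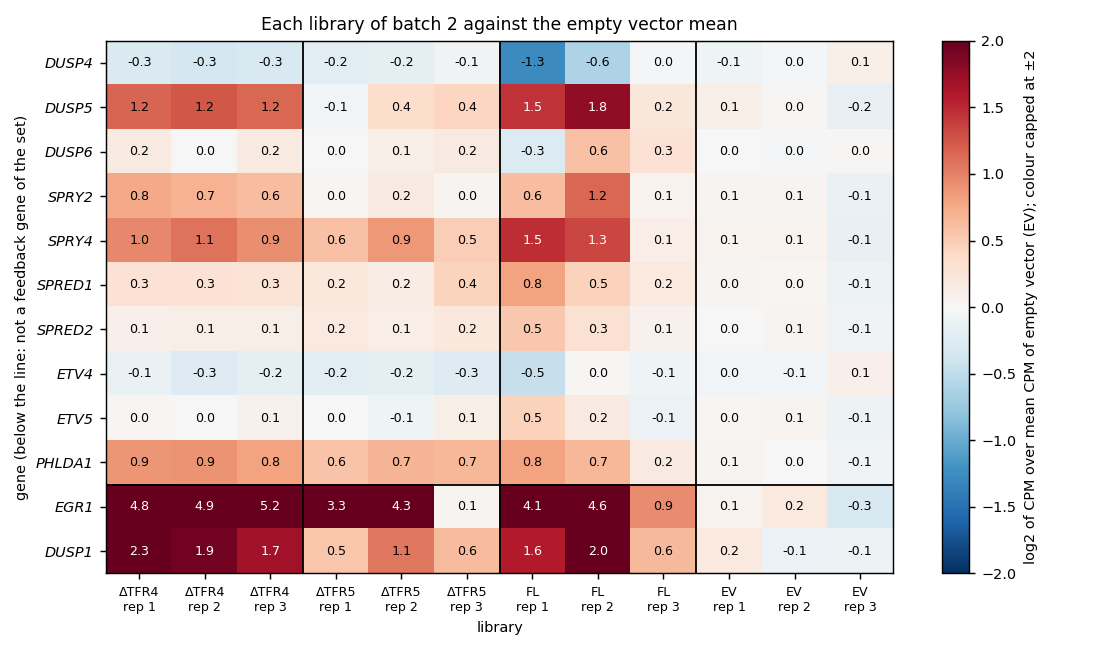
Each cell gives the log2 ratio of a library's CPM to the mean CPM of the empty vector libraries in batch 2, for the 10 feedback genes and for EGR1 and DUSP1 below the line, with colour capped at ±2. FL replicate 3 shows 0.23 for DUSP5 and FL replicates 1 and 2 show 1.45 and 1.78.

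The number of members called in FL against empty vector depended most on FL replicate 3. Without it, 7 members rose (DUSP5, SPRY4, PHLDA1, SPRY2, SPRED1, SPRED2 and ETV5) and DUSP4 fell, while 30.7% of all genes were called. DUSP5 then rose by 1.62 (edgeR adjusted p = 2.35e-05), SPRY4 by 1.40 (edgeR adjusted p = 2.21e-05) and SPRY2 by 0.90 (edgeR adjusted p = 0.000584), and DUSP4 fell by 0.92 on the log2 scale (edgeR adjusted p = 0.00124). Without any other single library no member passed, and 6 to 50 of all genes did. The fit without FL replicate 3 rests on FL replicates 1 and 2, and replicate 1 stood apart in its GC trend. Over all tested genes FL replicates 2 and 3 were the closest pair, with a chi-square per gene of 63.9 between their counts. It was 147 for replicates 1 and 2 and 227 for 1 and 3. ETV5 was at 0.32 in that fit. Without FL replicate 1 instead, DUSP5 was at 1.21, SPRY4 at 0.86, SPRY2 at 0.71, DUSP4 at -0.29 and ETV5 at 0.05. DESeq2 with all libraries called DUSP5, SPRY4, PHLDA1, SPRED1 and SPRY2, among 12.3% of genes. EGR1, an immediate early gene, lay at 387, 560.3 and 43.4 CPM in the same 3 FL libraries and at 23.6, 25.8 and 18.3 with empty vector, so of the FL libraries replicate 3 was nearest to empty vector in LINC00511, in EGR1 and in the feedback genes that moved. In ΔTFR5, replicate 3 was also lowest of its group in LINC00511 and in EGR1 (log2 ratio to empty vector 0.05). In that library SPRY4 was lowest of the group too (0.50), and SPRY2 and PHLDA1 lay in between. DUSP5 (0.44), SPRED1 (0.44) and SPRED2 (0.22) were highest there. Whether the LINC00511 level of a library has a part in this was not tested.

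The direct tests between constructs called no member in batch 2. ΔTFR4 against FL called 4.36% of all genes and 0 members (0 at an unadjusted p under 0.05, 0 by DESeq2), with DUSP5 at -0.10 ± 0.28 and a 95% interval of -0.74 to 0.54. Without FL replicate 3, 11.4% of genes were called, DUSP4 rose by 0.59 (edgeR adjusted p = 0.0352) and SPRY4 fell by 0.41 on the log2 scale (edgeR adjusted p = 0.0487). Without FL replicate 1, 8.88% of genes were called and PHLDA1 rose by 0.41 (edgeR adjusted p = 0.0495). ΔTFR5 against FL called 1.38% of all genes and 0 members by edgeR. DUSP5 and SPRY2 were at an unadjusted p under 0.05, where 3897 of the 18763 genes were. DESeq2 called 8.05% of genes and 1 member, DUSP5. DUSP5 differed by -1.03 ± 0.28 (edgeR adjusted p = 0.0775, DESeq2 adjusted p = 0.0092), and SPRY2 by -0.59 ± 0.20 (edgeR adjusted p = 0.129). Without FL replicate 3, 17.9% of genes were called, and DUSP5, SPRY2 and SPRY4 fell by 1.36, 0.82 and 0.75 on the log2 scale while DUSP4 rose by 0.76.

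ΔTFR5 against ΔTFR4 called 0.453% of all genes and 0 members (2 at an unadjusted p under 0.05, 0 by DESeq2). Of the 18763 genes, 1820 were at an unadjusted p under 0.05. DUSP5 differed by -0.93 ± 0.28 (edgeR adjusted p = 0.285) and SPRY2 by -0.60 ± 0.20 (edgeR adjusted p = 0.357). For both genes each ΔTFR5 library lay below each ΔTFR4 library, and 2 further members, PHLDA1 and SPRY4, were also lower without overlap, where 14.2% of all genes were. DUSP4 and SPRED2 were higher without overlap, where 13.1% of all genes were. With only these 6 libraries in the model both passed, DUSP5 at -0.92 (edgeR adjusted p = 0.000411) and SPRY2 at -0.60 (edgeR adjusted p = 0.00101), among 6.33% of all genes.

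In batch 1 the same 10 genes moved by no more than 0.26 on the log2 scale. FL against empty vector called 22.7% of all genes, 11.4% as higher and 11.3% as lower, and 3 members, 1 higher (SPRED1) and 2 lower (DUSP4 and ETV4). Without overlap, 3 members were higher and 0 lower, where 17.9% of all genes were higher and 18.7% lower. The members' median was 0.04, against -0.02 over all tested genes. SPRED1 measured 128, 119 and 131 CPM in FL and 101, 109 and 107 with empty vector, without overlap, and rose by 0.26 ± 0.06 (edgeR adjusted p = 0.00224). DUSP4 measured 303, 321 and 281 CPM in FL and 353, 326 and 318 with empty vector, where FL replicate 2 exceeds empty vector replicate 3, and fell by 0.14 ± 0.05 (edgeR adjusted p = 0.0405). ETV4 measured 90.4, 98.4 and 89.5 CPM in FL and 114, 109 and 97.9 with empty vector, where FL replicate 2 exceeds empty vector replicate 3 again, and fell by 0.20 ± 0.06 (edgeR adjusted p = 0.0152). The SPRED1 call held without any 1 library. The ETV4 call was lost without replicate 1 or 3 of FL or replicate 1 or 2 of empty vector, at adjusted p = 0.0638 to 0.160. The DUSP4 call was lost without any 1 of the 12 libraries other than FL replicate 2 and empty vector replicate 3, at adjusted p = 0.0704 to 0.334, and was also lost by DESeq2 (DESeq2 adjusted p = 0.0637), with RLE normalisation and with no filter on low counts (edgeR adjusted p = 0.0576 for both).

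**Figure D4:**
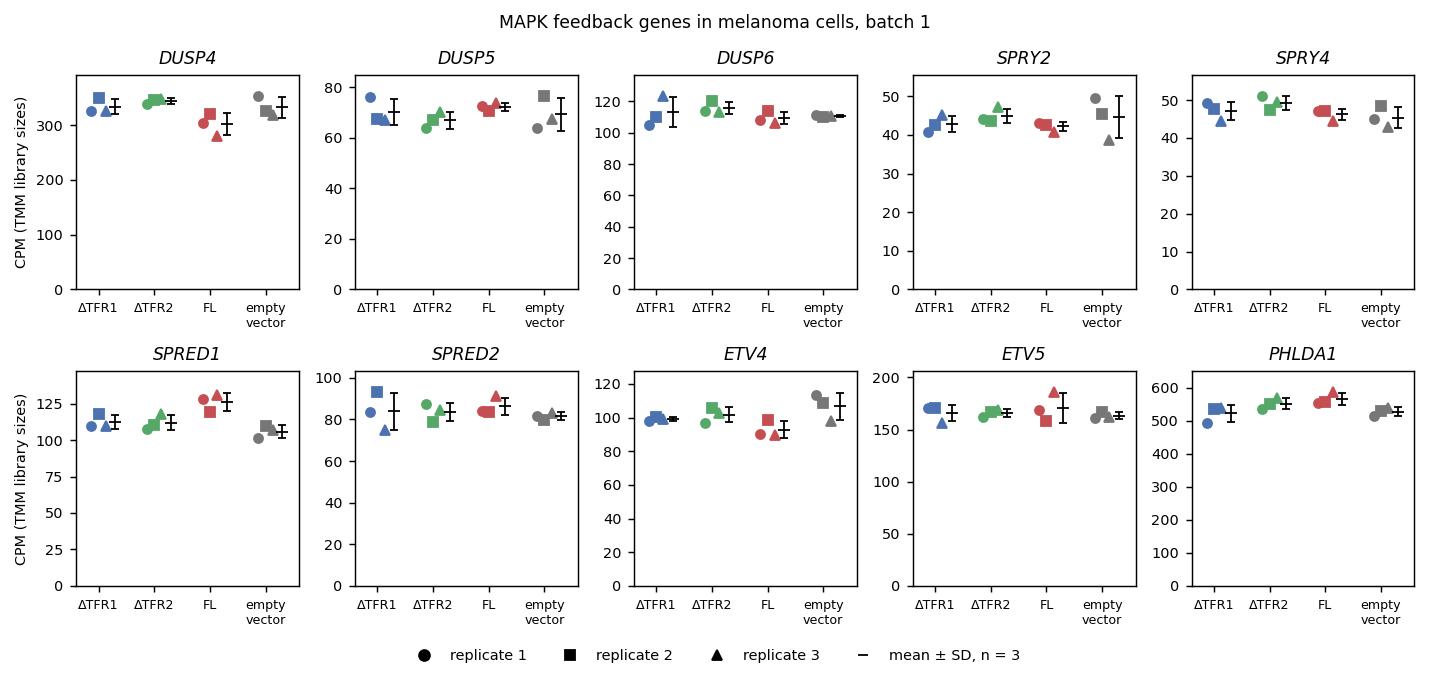
Level (CPM, vertical axes from 0) of each feedback gene in the 12 libraries of batch 1, by group, with symbols for replicates and bars for mean ± SD (n = 3). SPRED1 is higher in FL, at 126 ± 6.13 CPM, than with empty vector, at 106 ± 4.16 CPM.

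Of the 3 members called in FL of batch 1, SPRED1 has the lowest GC content of the 10, at 38.9%, and ETV4 the highest, at 60.8%. After each library's GC trend was removed, 1.96% of all genes were called and none of the 10 members passed. SPRED1 was then at 0.09 (edgeR adjusted p = 0.371), DUSP4 at -0.07 (edgeR adjusted p = 0.47) and ETV4 at 0.01 (edgeR adjusted p = 0.93), so the ETV4 sign turned. PHLDA1, whose FL libraries at 555, 557 and 587 CPM all exceed the empty vector libraries at 513, 530.1 and 539, differed by 0.10 ± 0.04 (edgeR adjusted p = 0.0872) as fitted and by 0.04 with the trend removed.

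**Figure D5:**
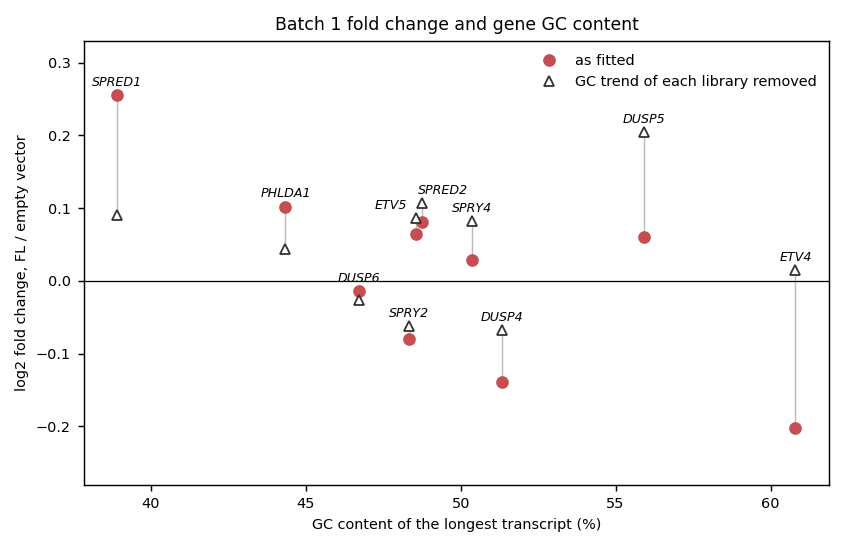
Log2 fold change of FL against empty vector in batch 1 for each feedback gene against the GC content of its longest transcript, as fitted (circles) and with each library's GC trend removed (triangles). SPRED1 moves down to 0.09 and ETV4 up to 0.01.

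DUSP5, SPRY2 and SPRY4, which were called in ΔTFR4 of batch 2, did not pass any of the 6 tests of batch 1. DUSP5 lay at 70.2 ± 5.18 CPM in ΔTFR1, 67.0 ± 3.29 in ΔTFR2, 72.2 ± 1.54 in FL and 69.4 ± 6.56 with empty vector (SD, n = 3). Its difference in FL was 0.06 ± 0.07 with a 95% interval of -0.10 to 0.22, which excludes the 1.29 found in batch 2. SPRY4 lay at 47.1 ± 2.41, 49.3 ± 1.84 and 46.2 ± 1.46 CPM in ΔTFR1, ΔTFR2 and FL, against 45.4 ± 2.85 with empty vector, and SPRY2 at 42.8 ± 2.17, 44.9 ± 1.92 and 42.2 ± 1.27 CPM, against 44.6 ± 5.47. Levels are not compared between batches, since the 2 tables were made in different ways, and a difference between the batches' effects was not tested.

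Deletions of region 1 or 2 were set against FL in batch 1. ΔTFR1 against FL called 10.1% of all genes and 0 members by edgeR. At an unadjusted p under 0.05 were 3 members, where 3954 of the 14310 genes were. DESeq2 called 17.4% of genes and 2 members, both lower: SPRED1 (DESeq2 adjusted p = 0.0381) and PHLDA1 (-0.13, DESeq2 adjusted p = 0.038). It did not call DUSP4 (DESeq2 adjusted p = 0.076). DUSP4 was 325, 349 and 325 CPM in ΔTFR1, all above FL, a difference of 0.14 ± 0.05 (edgeR adjusted p = 0.0593), and SPRED1 was 109.9, 118 and 109.8 CPM, all below FL, a difference of -0.16 ± 0.06 (edgeR adjusted p = 0.0554). ΔTFR2 against FL called 10% of all genes, 4.86% as higher and 5.15% as lower, and 2 members. DUSP4, at 338, 347 and 347 CPM in ΔTFR2, rose by 0.19 ± 0.05 (edgeR adjusted p = 0.0185), and SPRED1, at 108, 110.3 and 118 CPM, fell by 0.17 ± 0.06 (edgeR adjusted p = 0.0447). Each call was lost without any 1 ΔTFR2 library or without FL replicate 1 or 3, and that of SPRED1 also without empty vector replicate 2 or ΔTFR1 replicate 3, at adjusted p = 0.0521 to 0.140 over both genes. With the GC trend removed neither passed (edgeR adjusted p = 0.163 and 0.733), when 0.0419% of all genes were called. Without overlap, 3 members were higher and 2 lower in ΔTFR2 than in FL, where 15.3% and 14.4% of all genes were.

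ΔTFR1 and ΔTFR2 against empty vector called 0.00699% and 0.014% of all genes, and ΔTFR2 against ΔTFR1 called 0% (551 genes at an unadjusted p under 0.05, 0 by DESeq2). No member was called in these 3 comparisons by edgeR or DESeq2, and 0 were at an unadjusted p under 0.05. Member differences ran from -0.10 to 0.12.

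Some pairs of members were correlated with the same sign in both batches. Over the 12 libraries of a batch, which fall into 4 groups and differ in depth and GC trend, Pearson's r for SPRED1 with ETV4 was -0.75 in batch 2 and -0.75 in batch 1, and for DUSP4 with ETV4 it was 0.64 in batch 2 and 0.78 in batch 1. For DUSP5 with SPRY2 it was 0.97 in batch 2 and -0.32 in batch 1. In batch 2 it was also 0.90 for SPRY4 with PHLDA1 and -0.91 for DUSP4 with SPRED2. The differences between these values were not tested. Outside the set, the genes whose log2 CPM followed the members' mean standardised level most closely in batch 2 were TUFT1 (r = 0.976), RAD52 (0.970), VEGFA (0.968), LIF (0.955) and ERRFI1 (0.953), over 12 libraries. In batch 1 they were WIPI1 (0.815), ADSL (0.799), VWA5A (0.793), GABRA6 (0.793) and PRUNE2 (0.780).

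Other ERK-pathway genes were read from lists chosen with earlier results of these data known. Of 7 other MAP kinase phosphatases tested in batch 2, 3 were higher and 2 lower in ΔTFR4 than with empty vector, where 12.5% of all genes were higher and 11.4% lower. DUSP1, which acts on several MAP kinases, lay at 111, 88.8 and 74.6 CPM in ΔTFR4, 34.0, 48.4 and 36.2 in ΔTFR5, 70.2, 94.0 and 36.3 in FL, and 26.7, 21.3 and 21.7 with empty vector, and rose by 1.97 ± 0.28 in ΔTFR4 (edgeR adjusted p = 0.000937) and by 1.52 ± 0.28 in FL (edgeR adjusted p = 0.042). DUSP1, like DUSP5, was lowest in replicate 3 among the FL libraries. DUSP8 rose by 2.90 ± 0.42 in ΔTFR4 (edgeR adjusted p = 0.000948), where it measured 15.6 ± 2.14 CPM, against 2.08 ± 0.27 with empty vector (SD, n = 3). DUSP16 rose by 0.63 ± 0.15 in ΔTFR4. DUSP9 fell by 2.78 ± 0.54 in ΔTFR4, with 1, 3 and 5 counts, against 22, 14 and 33 with empty vector, and DUSP7 fell by 0.33 ± 0.11.

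Of 16 other ERK-responsive transcripts, 7 were higher and 2 lower in ΔTFR4 than with empty vector, where 12.5% of all genes were higher and 11.4% lower, with a median of 0.66. MYC, a growth-promoting transcription factor, rose by 1.92 ± 0.39 (edgeR adjusted p = 0.00502), MAFF by 1.84 ± 0.33 (edgeR adjusted p = 0.00242), EGR1 by 4.98 ± 1.12 (edgeR adjusted p = 0.0121) and JUNB by 1.28 ± 0.32 (edgeR adjusted p = 0.0136). HMGA2, a chromatin protein, fell by 1.20 ± 0.16 and cyclin D1 (CCND1) by 0.74 ± 0.16 on the log2 scale. In FL, where 1.03% of all genes were higher, 4 were higher and 0 lower by edgeR. MAFF, HBEGF, LIF and MYC were up by 1.19 to 1.82. At an unadjusted p under 0.05 were 12 of the 16, and 4933 of the 18763 genes. In ΔTFR5, 0 passed by edgeR, and 4 of the 16 and 4950 of the 18763 genes were at an unadjusted p under 0.05.

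Of 9 other negative regulators, 1 was called in FL, 2 in ΔTFR4 and 1 in ΔTFR5, each as higher. Of all genes, 1.16%, 23.9% and 10.2% were called, and 1.03%, 12.5% and 5.48% as higher. ERRFI1, an inhibitor of EGF receptors, rose by 1.17 ± 0.22 in FL (edgeR adjusted p = 0.042) and 0.73 ± 0.21 in ΔTFR4. LRIG1 rose by 0.61 ± 0.17 in ΔTFR4 and 1.07 ± 0.17 in ΔTFR5. Of 6 further Sprouty, SPRED, PEA3 and PHLDA genes, 1 was higher and 1 lower in ΔTFR4, and likewise in ΔTFR5. Of all genes, 12.5% were higher and 11.4% lower in ΔTFR4, and 5.48% and 4.68% in ΔTFR5. SPRED3 rose by 1.23 ± 0.26 and PHLDA2 fell by 0.59 ± 0.16 in ΔTFR4. SPRY3 rose by 0.96 ± 0.22 and PHLDA2 fell by 0.72 ± 0.16 in ΔTFR5. Of 18 RAS, RAF, MEK and ERK core genes, 2 were higher and 2 lower in ΔTFR4, against the same 12.5% and 11.4% of all genes: SOS2 and BRAF rose by 0.68 ± 0.19 and 0.69 ± 0.21, and MAP2K1 and GRB2 fell by 0.33 ± 0.10 and 0.29 ± 0.09. BRAF, whose mutant product drives the pathway in this line, lay at 96.5, 107 and 92.9 CPM in ΔTFR4, 89.4, 91.8 and 83.6 in ΔTFR5, 152, 99.0 and 66.8 in FL and 63.9, 61.8 and 58.2 with empty vector.

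In batch 1, where 11.4% of all genes were called higher and 11.3% lower in FL than with empty vector, 5 of the 18 core genes were higher and 4 lower, among them SHOC2 (0.41 ± 0.07) and NRAS (0.32 ± 0.06) higher and MAP2K2 (-0.49 ± 0.09) lower. Of the 16 other ERK-responsive transcripts, 2 were higher (CXCL8 and HMGA2) and 3 lower (EPHA2, IER2 and FOSL1). With the GC trend removed, when 1.96% of all genes were called, 2 core genes were higher, SHOC2 among them, and 1 lower (MAP2K2), and 0 of the 16 transcripts passed. HMGA2 was up by 0.17 ± 0.04 in FL of batch 1, a call lost with the GC trend removed (0.0042, edgeR adjusted p = 0.973), and down by 1.20 ± 0.16 in ΔTFR4 of batch 2.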

How the data were processed

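Gene expression was measured by RNA sequencing after rRNA depletion, per the labels. The authors deposited raw counts per gene symbol for batch 1 and estimated counts from salmon for batch 2, which were rounded to whole numbers here. The submitters' processing notes list STAR 2.7.3a, cutadapt 2.5, FastQC 0.11.5, DESeq2 1.24.0, Subread 1.6.2 with featureCounts, and 2 builds, GRCh38 and GRCm38, without roles. Strandedness, gene annotation and the version of salmon are not given in the sources, so counts of overlapping and antisense genes are uncertain. Per the design text the study also re-used samples submitted before, and how these relate to the 24 libraries is not stated. Each batch was fitted apart.

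Low genes were removed by filterByExpr (minimum count 10, minimum total 15), libraries were scaled by TMM, and 1 model of all 12 libraries of a batch was tested by the robust quasi-likelihood test of edgeR 4.0.16 (R 4.3.3). Benjamini-Hochberg adjustment ran over all tested genes of a comparison, with calls at an adjusted p under 0.05. Log2 CPM values used a prior count of 2, the SE is the size of the log2 fold change over the root of its F statistic, and 95% intervals use 8 degrees of freedom. The common biological coefficient of variation was 0.0503 in batch 1 and 0.212 in batch 2. No replicate pair agreed within sampling noise. In FL of batch 2 the chi-square per gene was 147 for replicates 1 and 2, 227 for 1 and 3 and 63.9 for 2 and 3. It was 8.23 to 39.4 in the other groups of batch 2 and 1.50 to 6.98 in batch 1. The FL libraries enter the dispersion of every comparison in the model of their batch. GC content came from the longest GENCODE transcript, known for 94.1% and 98.0% of tested genes, and its trend was a spline with 5 degrees of freedom in each library.

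Alternatives were DESeq2 1.42.0, RLE and upper-quartile normalisation, no filter, the 2 compared groups alone, a replicate block, GC trend removal, and leaving out each library. Scripts were tested on simulated data. The members, gene lists and markers were chosen with earlier results of these data known. The rule for names takes all 10 members in every comparison, of each pathway list up to 4 called genes with the lowest adjusted p in a comparison, EGR1 and BRAF, and for each batch the 5 genes most correlated with the members' mean; DUSP7, JUNB and FOSL1 were named after their values were seen. Some listed genes are not reported here by name. Figures were drawn with matplotlib 3.10.9.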

Additional observations from a re-analysis of the deposited data

How the results depend on the processing

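The counts of called members depended on the settings in most comparisons of FL. In batch 1, FL against empty vector (3 called) gave 2 by DESeq2, with RLE and with no filter, 1 with the 2 compared groups only and 0 with the GC trend removed, with or without the replicate block; ETV4 changed sign, to 0.014 without the block and 0.013 with it. ΔTFR1 against FL (0 called) gave 2 by DESeq2, 1 with RLE, 1 with upper-quartile normalisation, 1 with no filter and 3 with the replicate block. ΔTFR2 against FL (2 called) gave 1 with the 2 groups only and 0 with the GC trend removed, with or without the block. Of tested genes, FL against empty vector called 26.3% by DESeq2, 22.4% with RLE, 14.5% with no filter and 15% with the 2 groups only. With the GC trend removed it called 1.96%, and 3.25% with the block added. ΔTFR1 against FL called 17.4% by DESeq2, 10.1% with RLE, 10.4% with upper-quartile normalisation, 8.37% with no filter and 15.6% with the replicate block. ΔTFR2 against FL called 5.2% with the 2 groups only, 0.0419% with the GC trend removed and 0.915% with the block added. In batch 2, FL against empty vector (1 called) gave 5 by DESeq2, 0 with RLE, 0 with upper-quartile normalisation, 3 with no filter, 0 with the 2 groups only, 2 with the replicate block, 3 with the GC trend removed and 4 with that and the block. ΔTFR5 against FL (0) gave 1 by DESeq2, and ΔTFR5 against ΔTFR4 (0) gave 2 with the 2 groups only. ΔTFR4 against empty vector (4, all higher) gave 7 with the 2 groups only, 5 higher and 2 lower (DUSP4 and ETV4). It gave 6 with the GC trend removed, 5 higher and 1 lower (ETV4), and 3 with no filter. ΔTFR5 against empty vector (1, higher) gave 4 with the 2 groups only, 3 higher and 1 lower (ETV4). With the GC trend removed it gave 2, 1 higher and 1 lower (ETV4). Of tested genes, FL against empty vector there called 12.3% by DESeq2, 0.805% with RLE, 0.831% with upper-quartile normalisation and 2.28% with no filter. It called 0.0113% with the 2 groups only, 2.13% with the block, 4.03% with the GC trend removed and 8.98% with that and the block. ΔTFR4 against empty vector called 51.9% with the 2 groups only, 31.6% with the GC trend removed and 9.3% with no filter. ΔTFR5 against empty vector called 32% with the 2 groups only and 17.3% with the GC trend removed. The cause was not tested.

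Leaving out 1 library gave 1 to 4 called members for FL against empty vector, 0 to 3 for ΔTFR1 against FL and 0 to 2 for ΔTFR2 against FL in batch 1, and 0 in its other comparisons. In batch 2 it gave 0 to 8 for FL against empty vector, 0 to 2 for ΔTFR4 against FL, 0 to 4 for ΔTFR5 against FL, 2 to 6 for ΔTFR4 against empty vector, 0 to 2 for ΔTFR5 against empty vector and 0 to 2 for ΔTFR5 against ΔTFR4. No called member changed sign in the 1440 such member values. Of tested genes, FL against empty vector of batch 1 called 8.17% to 28.1% over these fits. ΔTFR1 against FL called 0.152% to 19% and ΔTFR2 against FL 0% to 18.7%. In batch 2, FL against empty vector called 0.031% to 30.7%. ΔTFR4 against FL called 0.406% to 11.4% and ΔTFR5 against FL 0.098% to 17.9%. Against empty vector, ΔTFR4 called 11.9% to 38.1% and ΔTFR5 2.27% to 23.9%. ΔTFR5 against ΔTFR4 called 0.2% to 1.99%.

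After group means were removed, same-numbered libraries correlated at -0.127 to 0.180 in batch 1 and -0.142 to 0.197 in batch 2. With 3 replicates per group these values cannot settle whether the replicate numbers pair the samples. Under the replicate block, FL against empty vector in batch 1 called 26% of tested genes and 4 members. The added member was PHLDA1 at 0.10 (edgeR adjusted p = 0.0397).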

Other observations

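DUSP5 and DUSP4 counts can be set against each other within a library, which leaves library scaling out. The ratio is of counts, not per transcript length, and it keeps any GC trend of a library. GC content is 55.9% for DUSP5 and 51.3% for DUSP4. Per 100 DUSP4 counts there were 87.7, 96.6 and 87.9 DUSP5 counts in the ΔTFR4 libraries of batch 2, 35.6, 46.6 and 45.4 in ΔTFR5, 212, 168 and 38.6 in FL, and 36.8, 33.5 and 26.4 with empty vector. FL replicates 1 and 2 had the highest ratios of the 12, and FL replicate 3 lay just above the empty vector libraries and within the ΔTFR5 range. In batch 1 the ratio was 23.4, 19.3 and 20.6 in ΔTFR1, 18.9, 19.3 and 20.3 in ΔTFR2, 23.9, 22.02 and 26.2 in FL, and 18.1, 23.5 and 21.3 with empty vector, where each FL library lies above each ΔTFR2 library and the other pairs of groups overlap.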
